A study of Mus musculus with 2 samples.

Results

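The Tbx5 regulatory domain is the 250 kb of mouse chromosome 5 that hold Tbx5 and its flanks, from 120200001 to 120450000 in the mm9 build. Its members are the peaks of H3K27ac, a histone acetylation, whose midpoints lie there. They number 48 of the 154664 peaks of both deposited lists: 15 of 87572 in the list of the atrioventricular canal (AVC) and 33 of 67092 in the list of the heart chambers. The domain was selected on the positions and numbers of called peaks in these same lists, so its counts, shares and signals are given as a description without a test. The gene body is taken as about 120.28 to 120.335 Mb, and before or after the gene means before or after this body. A RefSeq table for another build gives Tbx5 a greater length, 88.7 kb. Peaks placed before or after the body may therefore lie within the gene. No mm9 annotation was used here, so peaks are placed against this approximate body and not against exons, introns or untranslated regions.

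The study profiled cells sorted by flow cytometry from mouse hearts at stage E10.5 of mouse development, with 1 library per tissue and no replicate. AVC cells were sorted on EGFP, a green fluorescent protein, and chamber cells on Katushka, a far-red one. All cells came from embryos on the FVB/N background with the genotype label Katushka+ EGFP+. The labels do not name what drives each reporter or how many embryos were pooled. The tissue labels were not checked against marker loci here.

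Tbx5 encodes a T-box transcription factor that acts with factors such as Nkx2-5 and Gata4 to switch on genes of working heart muscle, and it is also needed in the conduction system. It is best known from Holt-Oram syndrome, in which loss of a copy causes defects of the heart and the forelimb. In the RefSeq gene order of the mouse, its protein-coding neighbours are Tbx3, a T-box repressor of the chamber program in the AVC and conduction system, and Rbm19, an RNA-binding protein gene. H3K27ac marks active promoters and enhancers. The AVC is the slow-conducting segment between atria and ventricles, and the chambers are the faster-conducting working muscle.

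Each peak carries a whole-number signal value, which the file headers do not name and which is not scaled between libraries, and a score, the Log(ER) of the peak caller. Both are the authors' values. The caller worked chromosome by chromosome in each list, so equal values do not score alike: on chromosome 5 a signal value of 51 scored 5.16 in the AVC list and 6.39 in the chamber list. The lowest signal value called on the chromosome was 27 in the AVC list and 24 in the chamber list. A score of 5, taken below as the limit of a strong peak, was first reached at 50 (AVC) and 43 (chambers). Sequencing depth is unknown, and the lack of a peak says only that none passed the caller there.

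Across the domain the chamber list held more peaks, more covered bases and higher scores than the AVC list. AVC peaks made up 31.2% of the members (exact Clopper-Pearson 95% interval 18.7 to 46.3), against 54.5% of the peaks of chromosome 5 and 56.6% of all peaks. Chamber peaks covered 15451 bp, 6.18% of the domain, and AVC peaks covered 7734 bp, 3.09%. The chamber list thus covered 2.0 times as many bases here, whereas over the whole lists it covered 0.556 times as many. Bases covered in both lists came to 3755, which was 48.6% of the AVC and 24.3% of the chamber bases of the domain. Over the whole lists those percentages were 14.9 and 26.7. The AVC bases of the domain were therefore more often within a chamber peak than over the AVC list as a whole, while the chamber percentage lay near its background. The first of these comes from a domain selected on its peaks and dense in chamber peaks.

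**Figure D1:**
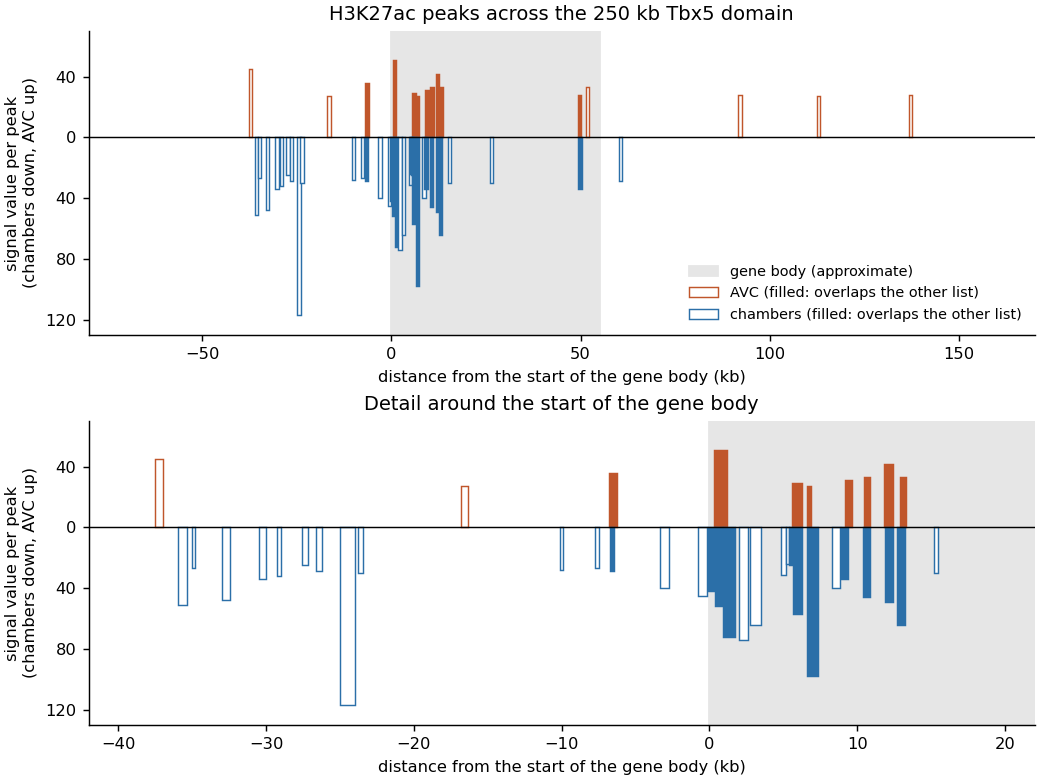
Signal value of every H3K27ac peak of the Tbx5 domain against the distance of its midpoint from the start of the gene body (kb), AVC upward and chambers downward, for the whole domain (bars drawn at least 0.9 kb wide) and in detail (bars as wide as the peaks). Filled bars overlap a peak of the other list, the grey band is the approximate gene body, and the tallest bar is the chamber peak of signal value 117 before the gene, which has no AVC peak opposite it.

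Peaks of both tissues gathered around the start of the gene body. With neighbours at most 5 kb apart joined, 21 of the 33 chamber peaks formed a run from 10.1 kb before the start to 15.5 kb after it. This run extended from 120269905 to 120295454, and its peaks covered 39.9% of it. In the AVC list 7 of the 15 peaks formed a run from 120280289 to 120293291, 0.3 to 13.3 kb into the gene body. Each of these 7 overlapped a chamber peak, where 23.2% did over the AVC list. The AVC run therefore lay wholly inside the chamber run, and the chamber run reached further on both sides. How far the AVC run reaches depends on the joining limit. An AVC peak from 120273223 to 120273772, also inside the chamber run, lay 6516 bp before the AVC run and was not joined to it.

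At the start of the gene body the chamber peaks were nearly continuous. From 120279213 to 120283472 there were 6 chamber peaks that covered 89.1% of 4260 bp, with gaps of 5 to 249 bp between them. Going into the gene, their signal values were 45, 42, 52, 72, 74 and 64, and their scores 5.36, 4.85, 6.57, 10.14, 10.49 and 8.70. The values were highest in the peaks 1.34 to 3.11 kb past the start. Opposite this block the AVC list had 1 peak, from 120280289 to 120281200, 912 bp wide, with a signal value of 51 and a score of 5.16. It was the widest and the highest-scoring AVC peak of the domain. It touched 3 of the 6 chamber peaks and covered the whole of the one from 120280385 to 120280933, whose signal value was 52. The chamber peaks from 120281999 to 120282596 and from 120282741 to 120283472, both strong, had no AVC partner, and the nearest AVC peak lay 799 and 1541 bp away.

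The peaks 5 to 9.4 kb into the gene body showed the widest gap in signal between paired members. The chamber peak from 120286577 to 120287339 was 763 bp wide, with a signal value of 98 and a score of 14.72. It was the second-highest score of the domain and ranked 130 among the 3631 chamber peaks of chromosome 5. Its AVC partner, from 120286575 to 120286893, began at almost the same base but was 319 bp wide, with a signal value of 27, the lowest called on the chromosome, and a score of 2.10. Next to it, the chamber peak from 120285647 to 120286263 (signal value 57, score 7.43) lay entirely within an AVC peak with a signal value of 29 and a score of 2.32. Before these, 3 weak chamber peaks with signal values of 31, 24 and 25 followed each other with gaps of 1 bp, and the last of them also overlapped that AVC peak by 51 bp. After them, 2 weaker chamber peaks with signal values of 40 and 34 were called, and the second overlapped an AVC peak of value 31.

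Further in, 3 loci were called in both tissues at nearly the same position. The chamber peak from 120290359 to 120290836 had a signal value of 46 and its AVC partner 33. The chamber peak from 120291881 to 120292434 had 49 and its AVC partner 42, with midpoints 27 bp apart. The chamber peak from 120292707 to 120293235 had 64 and its AVC partner 33. All 3 chamber peaks were strong, with scores of 5.53, 6.04 and 8.70, and none of the AVC partners was, with 2.78, 3.93 and 2.78.

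A second group of chamber peaks lay before the gene and overlapped no AVC peak. From 120244023 to 120256570, which is 36.0 to 23.4 kb before the start of the gene body, 9 chamber peaks covered 34.2% of 12548 bp. None of the 9 overlapped an AVC peak, and 3 of them were strong. Over the whole chamber list 31.6% of the peaks and 70.8% of the strong ones overlapped an AVC peak. Lack of a partner is thus usual for a chamber peak and less so for a strong one. All 3 strong peaks here are at least 300 bp wide, and of such strong chamber peaks on chromosome 5 only 55.8% overlapped an AVC peak. In order toward the gene the 9 peaks had signal values of 51, 27, 48, 34, 32, 25, 29, 117 and 30. The value of 117 belonged to the peak from 120254981 to 120255995, the strongest member of the domain in either list, 1015 bp wide and scored at 17.12. It ranked 102 among the chamber peaks of chromosome 5, and the nearest AVC peak was 7217 bp away. Strong peaks at the outer side of the group, from 120244023 to 120244656 and from 120247032 to 120247575, scored 6.39 and 5.87. The AVC list had a peak just outside the group, from 120242476 to 120243029, with a signal value of 45 and a score of 4.33, the second-highest AVC score of the domain. It lay 994 bp from the first chamber peak of the group.

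Between this group and the gene both tissues had few and weak peaks. There were 4 chamber peaks, with signal values of 28, 27, 29 and 40, before the strong one that opens the block at the gene start. The AVC list had 2 peaks there, with values of 27 and 36. The second, from 120273223 to 120273772, was the only AVC peak before the gene body that overlapped a chamber peak. The AVC value of 36 was above the chamber value of 29 at this locus.

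The rest of the gene body and the sequence after it were sparse. A chamber peak of signal value 30 lay 26.48 kb into the gene body. Near its far end an AVC peak from 120329436 to 120329856 (value 28) overlapped a chamber peak from 120329720 to 120330050 (value 34), and a second AVC peak of value 33 followed 51.88 kb in. The 115 kb after the body held 3 AVC peaks with values of 27 to 28 and scores of 2.10 to 2.21, and 1 chamber peak with a value of 29. None of them was shared, where over the whole lists 23.2% of AVC and 31.6% of chamber peaks were. The 3 AVC peaks stood at or next to the lowest value called on the chromosome. Past its last peak in the domain, the chamber list had no peak for 201.2 kb and the AVC list none for 53.6 kb.

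Wide gaps separated the members from the nearest peaks outside the domain. On the Tbx3 side, the last AVC peak outside ended at 120194842 (signal value 36), 47.6 kb before the first inside. The last chamber peak outside ended at 120183112 (value 29), 60.9 kb before the first inside. Balance between the lists differed across this gap: the 200 kb on the Tbx3 side held 53 AVC and 8 chamber peaks, of which 9 and 2 were strong. Widening the domain by 50 kb on each side brought in AVC peaks of that stretch and gave 33 AVC and 35 chamber peaks, an AVC share of 48.5%.

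Before, within and after the gene body the lists thus stood in different proportions. Before it there were 3 AVC and 14 chamber peaks, an AVC share of 17.6% (95% interval 3.8 to 43.4). Within it there were 9 and 18, a share of 33.3% (16.5 to 54.0). After it there were 3 and 1, a share of 75% (19.4 to 99.4). The intervals overlap one another, cover counting error only, and treat neighbouring peaks as independent, which they are not. The bounds of the body are approximate and were not varied, so the split into these parts is approximate as well.

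Strong peaks made up a larger part of the chamber members than of the chamber list, and about the background part of the AVC members. Of the 33 chamber peaks 13 had a score of at least 5, which is 39.4% (22.9 to 57.9), where the background was 18.1% of the chamber list and 17.9% on chromosome 5. Of the 15 AVC peaks 1 did, 6.67% (0.169 to 31.9), where the background was 9.95% of the AVC list. Scores of 10 or more were reached by 4 of the 33 chamber members and no AVC member. Over the whole lists 4333 of 67092 chamber peaks and 3188 of 87572 AVC peaks reached this limit. It is so rare in the AVC list that its absence from 15 members says little. A ranking within each list avoids the unequal scales of the scores. In the top 25% of the chromosome by score, which because of ties held 24.7% of its chamber and 24.1% of its AVC peaks, there were 16 of the 33 chamber members and 3 of the 15 AVC members, again near the background for the AVC. The median percentile of the members among the peaks of their own list on chromosome 5 was 68.1 for the chambers and 46.3 for the AVC.

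**Figure D2:**
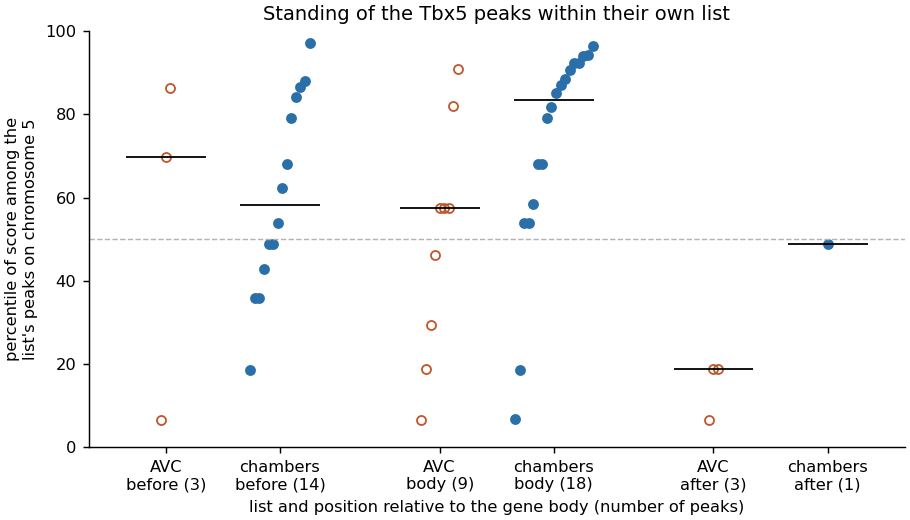
Percentile of the score of each Tbx5 peak among the peaks of its own list on chromosome 5, by list and by position before, within or after the gene body, with the number of peaks in brackets. Points are peaks, black lines are medians and the dashed line marks a percentile of 50; the chamber peaks of the gene body have a median of 83.4 and the AVC peaks there 57.5.

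Within the gene body the difference in standing was larger. The 18 chamber peaks there had a median percentile of 83.4, and 9 of them were strong. The 9 AVC peaks there had a median of 57.5, and 1 was strong. Before the body the medians were 58.2 for 14 chamber peaks and 69.8 for 3 AVC peaks, so the order was the opposite there, on few AVC peaks. The 14 chamber peaks before the body ran from percentile 18.5 to 97.2, a mixture of weak peaks and the strongest one of the domain.

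Sharing differed between the lists. Of the 15 AVC members 9 overlapped a chamber peak, 60.0% (32.3 to 83.7), against a background of 23.2% in the AVC list and 23.1% on chromosome 5. The domain was selected on its peaks, and chamber peaks covered 6.18% of it and 16.4% of the gene body. An AVC peak had that much more to overlap here, so the higher share is a description only. The intervals also treat neighbouring peaks as independent, which they are not. Of the 33 chamber members 12 overlapped an AVC peak, 36.4% (20.4 to 54.9), against 31.6% in the chamber list and 28.9% on chromosome 5, a share near the background. Of the AVC peaks in the gene body 8 of 9 were shared, and of the chamber peaks there 11 of 18. Before the body 1 of 3 AVC and 1 of 14 chamber peaks were shared. Requiring an overlap of at least 50% of the shorter peak left 7 AVC and 7 chamber peaks, and accepting a neighbour within 1 kb gave 10 and 19. The shares of the whole lists under these rules were not computed, so the backgrounds above do not apply to these counts.

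Of the 13 strong chamber peaks, 7 overlapped an AVC peak and 6 did not. The background was 70.8% shared over all strong chamber peaks, and 55.8% over those of chromosome 5 at least 300 bp wide, a width that all 13 have. The 7 shared ones all lay in the gene body, as did 2 of the others. Of the 6 unshared ones, 3 belonged to the group 36.0 to 23.4 kb before the gene and 3 to the block at its start, which also holds 2 of the shared ones. On these few peaks the shared part lies close to the background of wide peaks.

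At loci called in both lists the AVC value was mostly the lower one. The 9 AVC and 12 chamber peaks formed 12 overlapping pairs, since a wide AVC peak could meet several chamber peaks. In 9 of the 12 the AVC signal value was below the chamber value, whereas this held for 38.6% of the 1097 pairs of chromosome 5. The median AVC-to-chamber ratio of the unscaled values was 0.84 over the 12 pairs, with a range of 0.276 to 1.24, and 1.12 over the pairs of chromosome 5, with an interquartile range of 0.833 to 1.52. Ratios were lower where both peaks were wide. Among pairs with both peaks at least 300 bp wide, 9 of 10 in the domain had a lower AVC value, with a median ratio of 0.77, against 52.5% of 668 pairs on the chromosome, with a median of 0.969. The ratios are descriptions of unscaled values, and the pairs share peaks and neighbours.

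**Figure D3:**
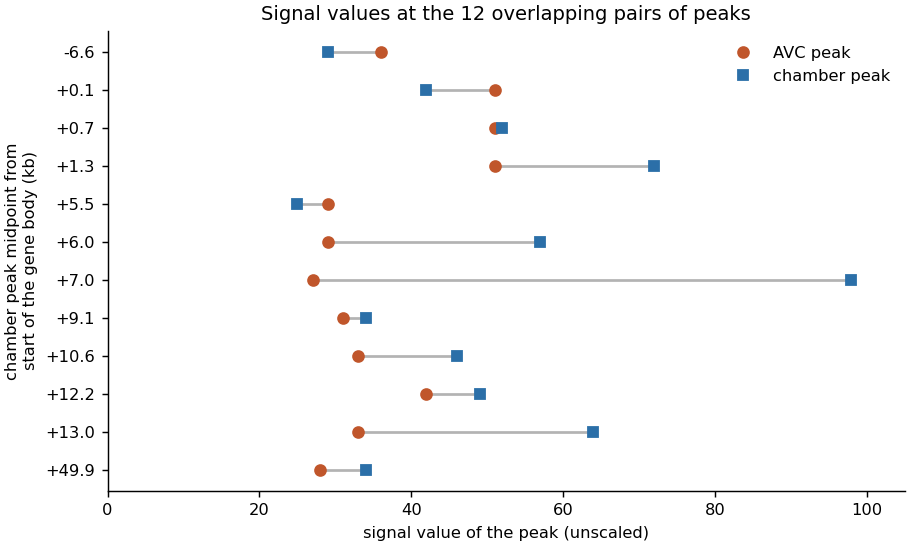
Unscaled signal values of the AVC peak (circle) and the chamber peak (square) at each of the 12 overlapping pairs of the Tbx5 domain, ordered by the distance of the chamber peak from the start of the gene body (kb). The chamber value is the higher one in 9 pairs, and the widest gap, 27 against 98, is at 7.0 kb into the gene body; an AVC peak that meets several chamber peaks appears once for each.

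The 3 pairs with a higher AVC value had ratios of 1.16 to 1.24 and involved chamber peaks with values of 29, 42 and 25. In 2 of them the AVC peak met a chamber peak only at its edge, over 79 and 51 bp. The ratio was lowest, 0.276, at the chamber peak of score 14.72, and next lowest, 0.509 and 0.516, at the chamber peaks of scores 7.43 and 8.70. The pair with the closest values, 51 and 52, was at the start of the gene body.

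Width distinguished the chamber members from their list more than the AVC members. The median width of the 33 chamber peaks was 478 bp (interquartile range 294 to 585), against 327 bp on chromosome 5. That of the 15 AVC peaks was 497 bp (437 to 552), against 477 bp on the chromosome. Chamber members ranged from 147 to 1015 bp and AVC members from 319 to 912 bp. Across the 33 chamber members width and score had a Spearman correlation of 0.89, and across the 15 AVC members of 0.56. Over all peaks of the chromosome these were 0.41 and 0.33. Members of a list come from 1 library and adjoin one another, so these are descriptions.

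**Figure D4:**
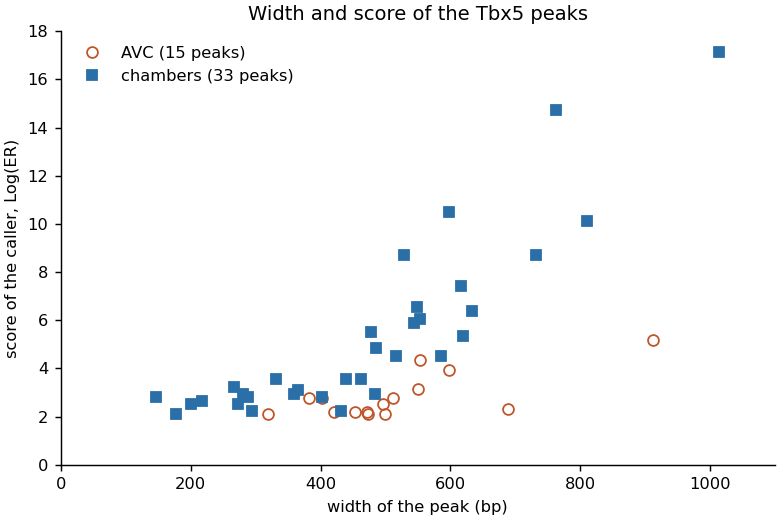
Width (bp) and score of each Tbx5 peak, AVC as open circles and chambers as filled squares. All chamber peaks with a score of at least 5 are at least 478 bp wide, and the AVC peaks stay at or below a score of 5.16 over their whole range of widths.

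The number of chamber peaks depends on how far the caller split neighbouring signal. Of the 32 gaps between successive chamber members 7 were at most 100 bp and 18 at most 1 kb, whereas no AVC gap was at most 100 bp and 4 of 14 were at most 1 kb. Over chromosome 5, 20.1% of the chamber gaps and 11.7% of the AVC gaps were at most 1 kb. Members of both lists were thus spaced more closely than their list, and the lists differ in spacing outside the domain as well. The shares at most 100 bp were not computed for the chromosome. With peaks at most 100 bp apart merged there were 26 chamber and 15 AVC regions. With peaks at most 1 kb apart merged there were 15 and 11, and the AVC share was 42.3%. The AVC share of the whole lists was not computed with peaks merged. Strong merged regions numbered 6 and 1. With the gaps inside merged regions counted, the covered bases were 21176 (chambers) and 10287 (AVC) when merged at 1 kb, against 15451 and 7734.

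Among stretches of the same size the domain was dense in chamber peaks. The autosomes were divided into 9221 occupied windows of 250 kb, laid so that the domain was one of them. The domain was selected on its peak numbers and the other windows were not, so its ranks are a description and no independent support. In all, 159 windows had more chamber peaks than its 33, and 37 had more strong chamber peaks than its 13. On chromosome 5 these numbers were 2 and 1, of 567 windows. By AVC peaks, 1592 autosomal windows had more than its 15. With peaks merged at 1 kb, 531 windows had more chamber regions than the domain. Chamber strong peaks outnumbered AVC strong peaks by 12 in the domain, and 10 autosomal windows had a larger excess, none of them on chromosome 5. The score limit is reached at a lower signal value in the chamber list. With a signal value of at least 50 required in both lists, the domain had 9 chamber peaks and 1 AVC peak. No share of the whole lists was computed at that limit, and the values are unscaled between libraries, so these counts are a description only. Windows were not ranked on that limit. Among 2836 autosomal windows with at least 20 peaks, 64 had a lower AVC share than 31.2%, and the median share was 54.2%. Another 238 windows held 15 AVC peaks like the domain. Their median number of chamber peaks was 10, the highest was 37, and 2 of them had at least 33.

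**Figure D5:**
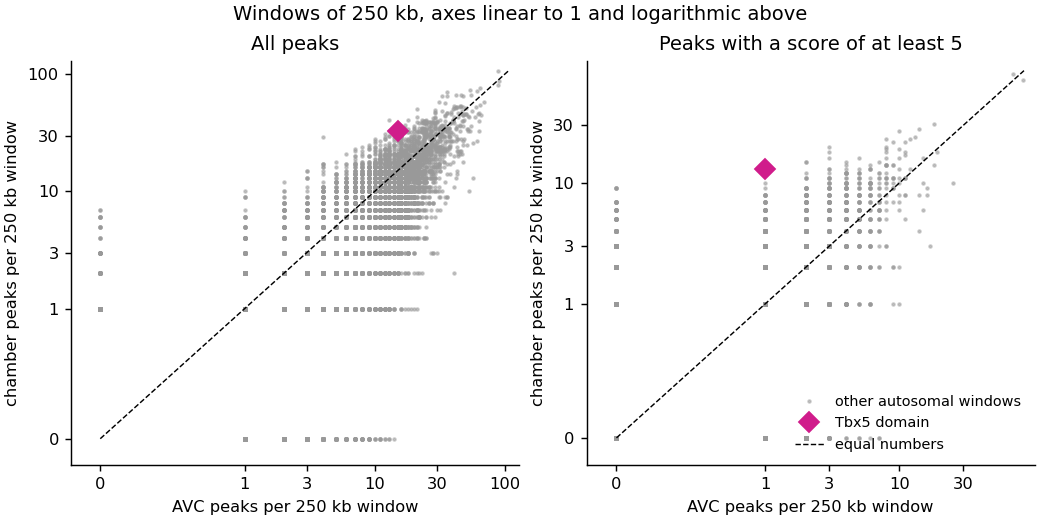
Number of AVC peaks (horizontal) and chamber peaks (vertical) in each 250 kb window of the autosomes, for all peaks and for peaks with a score of at least 5, on axes that are linear up to 1 and logarithmic above. Grey points are windows, the dashed line marks equal numbers, and the diamond is the Tbx5 domain at 15 and 33 peaks, or 1 and 13 strong peaks, above the line in both plots.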

How the data were processed

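H3K27ac ChIP-seq libraries of AVC and chamber cells (1 each) were compared through the authors' peak lists. Per the submitters' processing notes, Bowtie, SAMtools and the mm9 build were used, with no versions or roles named. Per the file headers, OccuPeak 1.3 called the peaks of each library by chromosome. Its Log(ER) threshold was 2, reads were 50 long, and fragments were modelled at 60.5 bp in the AVC and 68 bp in the chamber library. The deposited score is this Log(ER), whose log base is not stated. The deposited signal value is a whole number per peak, unnamed in the headers and unscaled between lists. The sources used here do not say whether a control library was used.

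Peaks were placed by midpoint, with coordinates 1-based. Overlap meant at least 1 bp, checked against bedtools 2.31.1 and on simulated data. Intervals are exact Clopper-Pearson 95% and cover counting error only. No test was made. Peaks named are those overlapping between lists, the 5 of highest score per list and those nearest the start of the gene body; others are named beside them as their neighbours, after their values were seen. Members, limits and lists were chosen with earlier results of these data known; joining at 5 kb, merging, the ranking by percentile and the 50 limit on signal values were chosen after seeing the data. The RefSeq table used for gene names is for GRCm38, so none of its coordinates were used. It gives Tbx5 a length of 88.7 kb, longer than the 55 kb taken here as its body, and lists Gm5563 as an overlapping gene. No Tbx5 sequence was used here. Software was pandas 2.3.3, numpy 2.4.6, matplotlib 3.10.9 and scipy 1.17.1 under Python 3.11.15.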

Additional observations from a re-analysis of the deposited data

How the results depend on the processing

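Of 103 alternative values over 13 results, 83 stayed close to the value reported (a count or ratio within 1.5 times, a share within its interval, a median width within the interquartile range). Some of the 83 could not move. Cutting the longer list to the length of the shorter left the chamber list whole, so values from chamber peaks alone were repeated. A score limit of 3 keeps every strong peak of the domain. The 83 is therefore no measure of robustness. At scores of at least 3 the domain held 4 AVC and 21 chamber peaks (an AVC share of 16.0%), AVC peaks covered 2614 bp with a median width of 576 bp, 2 AVC peaks met 4 chamber peaks, and 86 windows had more chamber peaks. The AVC share of the whole lists was not computed at that limit. On chromosome 5 a signal value of 33 scored 2.78 in the AVC list and 3.39 in the chamber list, so the limit asks for a higher signal value in the AVC list. Widened by 50 kb on each side, it held 33 AVC peaks (48.5%) that covered 17508 bp, and 5 were strong. Merged at 1 kb, there were 15 chamber regions, 6 of them strong, 5 regions of each list were shared, and 531 windows had more. Shared chamber peaks numbered 7 with an overlap of at least 50% of the shorter peak and 19 with a neighbour within 1 kb. No background was computed for either rule. In the top 25% of the chromosome there were 3 AVC members, against 1 with a score of at least 5. Under every alternative run, chamber peaks outnumbered AVC peaks in the domain, and their covered bases were the larger except when the domain was widened by 50 kb, where they came to 16682 bp. The widening adds sequence and the score limit removes peaks by construction. No paired analysis was possible because each tissue has 1 library. Unknown depth limits what a missing peak shows.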
